A study of Mus musculus with 4 samples.

Results

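The genes described here are 10 small calcium- or sugar-binding protein genes linked to T cell activation: the S100 genes S100a4, S100a6, S100a10, S100a11 and S100a13, the galectin genes Lgals1 and Lgals3, and the annexin genes Anxa1, Anxa2 and Anxa5. They were chosen by name with differences of the same contrast already known, as genes that may keep their level after Foxp3 is lost, so every difference between the groups given for them is a description without a test. All probe sets whose platform symbol is exactly 1 of these names were taken. This gave 15 probe sets of 9 genes, among 18193 genes with a probe set of their own. The 1 probe set listed for S100a11 carries 3 symbols on the platform, namely S100a11, the pseudogene S100a11-ps and Gm12854, so S100a11 has no value here. Of the 15 probe sets, 12, from all 9 genes, had a mean log2 intensity of at least 4 over the 4 arrays, the level below which these arrays pile up near a floor.

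The samples were mouse CD4+ YFP+ Ly5.2+ T cells, profiled on 1 single-colour array each. In the deleted group (2 arrays, labelled Foxp3delta) the regulatory T (Treg) cells carried a loxP-flanked Foxp3 gene. In the wild-type group (2 arrays, labelled Foxp3+) the Foxp3 gene was intact. Cells of both groups had been treated with HR-MMPCreGFP to deliver Cre, marked by a Cre-dependent YFP, and recovered 6 weeks after adoptive transfer. Ly5.2 is an allelic form of CD45 used to tell transferred cells from those of a host. The labels give neither the host nor the age of the mice, nor whether the 2 samples of a group came from separate animals, so the spread between them may be technical. Foxp3 encodes the transcription factor that defines Treg cells, and its probe set read 438 and 430 in the 2 deleted arrays, compared with 2694 and 2404 in the 2 wild-type arrays (intensity).

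S100 proteins are small proteins that mostly bind calcium through EF-hand loops and then attach to partner proteins. Galectins bind beta-galactoside sugars on glycoproteins, inside and outside the cell. Annexins bind acidic phospholipids of membranes when calcium is present. In T cells several of these genes are low in naive cells and higher in effector, memory and activated Treg cells. They are also abundant in myeloid cells, which matters for sorted T cells because a few such cells can add to the signal.

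Promoters of 3 genes are shown for the range they cover. Lgals3 had the widest gap between the groups, and S100a4 had no match. Anxa2 was the only gene with an AP-1 match among the measured genes of the set whose promoter could be searched. Each runs from 250 bases before to 50 bases after the RefSeq gene start on GRCm38.p6, and capitals mark matches to the motifs searched on both strands.
Lgals3, chr14:47373610-47373909, plus strand: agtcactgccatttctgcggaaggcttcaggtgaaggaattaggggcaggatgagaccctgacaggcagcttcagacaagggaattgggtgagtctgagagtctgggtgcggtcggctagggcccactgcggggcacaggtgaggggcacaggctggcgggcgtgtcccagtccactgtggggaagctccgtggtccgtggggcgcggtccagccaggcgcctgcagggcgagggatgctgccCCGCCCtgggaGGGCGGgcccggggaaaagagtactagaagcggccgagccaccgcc
Anxa2, chr9:69453433-69453732, plus strand: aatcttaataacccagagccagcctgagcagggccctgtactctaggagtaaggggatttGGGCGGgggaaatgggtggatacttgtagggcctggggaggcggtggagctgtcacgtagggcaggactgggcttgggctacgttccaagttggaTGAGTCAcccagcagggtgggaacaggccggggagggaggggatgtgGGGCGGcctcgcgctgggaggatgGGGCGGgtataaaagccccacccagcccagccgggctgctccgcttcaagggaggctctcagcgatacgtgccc
S100a4, chr3:90603520-90603819, plus strand: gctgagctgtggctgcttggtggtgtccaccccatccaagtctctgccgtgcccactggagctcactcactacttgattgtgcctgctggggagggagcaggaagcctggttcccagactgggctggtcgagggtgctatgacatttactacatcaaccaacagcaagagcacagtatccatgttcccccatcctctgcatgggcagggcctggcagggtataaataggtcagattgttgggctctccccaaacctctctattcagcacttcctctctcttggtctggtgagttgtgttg
The motifs were TGANTCA (AP-1), GTAAACA (forkhead, the family of Foxp3) and GGGCGG (GC box), and RefSeq promoter entries matched 8 of the 10 genes, without S100a10 and Lgals1. The AP-1 letters occurred in 2 of the 8 promoters, those of Anxa2 and S100a11, against 7.81% of 32851 promoters in all. The GC box occurred in 3 of the 8, those of Lgals3, Anxa2 and S100a11, against 35.7% of all promoters. The forkhead letters occurred in 0 of the 8, against 3.65% of all promoters. A match is only a description of these letters in this window. The 5 S100 genes lie on chromosome 3 in this assembly, where S100a4 and S100a6 are separated by S100a5 alone and S100a11 and S100a10 are neighbours among the coding genes.

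The T cell genes Cd3d, Cd3e, Cd3g, Cd4, Cd5 and Cd28 were above the filter, and none of the 3 measured CD8 T and NK cell genes (Cd8a, Cd8b1 and Ncr1) was. Of the 7 T cell probe sets above the filter, 6 had a higher mean in deleted cells, against 50.5% of all probe sets tested. Their median log2 difference was 0.49, and 0.81 without deleted replicate 1. One array stood apart in markers of another cell type. Of 16 myeloid marker genes, 15 had probe sets of their own, 20 in all. These summed to an intensity of 18694 and 4189 in deleted replicates 1 and 2, compared with 3349 and 6140 in wild-type replicates 1 and 2. Most of each sum came from 2 probe sets of Lyz1, at 12150 and 3650 in deleted replicate 1 and at 4182 and 1181 in wild-type replicate 2. Both carry the suffix _x_at, for probes that can also bind other transcripts. The other Lyz1 probe set was near the floor on every array, with log2 intensities between 2.54 and 3.32. Of the 12 myeloid probe sets above the filter, 11 were highest in deleted replicate 1. Lyz2, the macrophage and granulocyte lysozyme, had log2 intensities of 9.69 and 6.30 in the 2 deleted arrays, compared with 5.65 and 7.24 in the 2 wild-type arrays. All 12 had a higher mean in deleted cells, with a median difference of 1.01, which was -0.01 without deleted replicate 1, and 0 passed the limma test described below. Cd14, Itgam, Itgax, Cd68, Fcgr3 and Csf3r had means below the filter, while Csf1r and Adgre1, both macrophage markers, were above it. Adgre1 was only just above, at log2 intensities of 4.33 and 4.44 in the 2 deleted arrays, compared with 4.36 and 4.32 in the 2 wild-type arrays. Of the genes below the filter, Fcgr3 had 5.01 and 3.07 in the 2 deleted arrays, compared with 3.20 and 3.10 in the 2 wild-type arrays (log2 intensity). Cd68 had 4.34 and 2.75 in the 2 deleted arrays, compared with 2.67 and 2.64 in the 2 wild-type arrays. Of the 12 S100, galectin and annexin probe sets, 7 were highest in deleted replicate 1, where 25.2% of all tested probe sets were. The part of these markers in the values below was not tested, and the difference of each of these 12 probe sets is therefore given with and without deleted replicate 1.

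**Figure D1:**
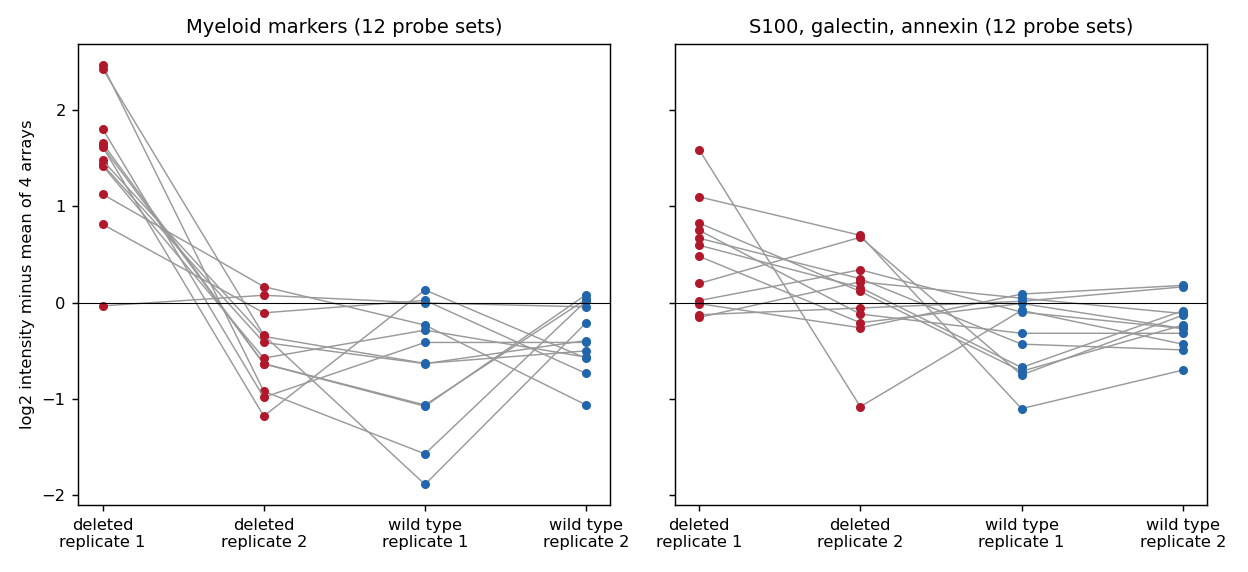
Log2 intensity of each probe set minus its mean over the 4 arrays (y axis), for the 12 myeloid marker probe sets above the filter (left) and the 12 S100, galectin and annexin probe sets (right), by array (x axis, deleted in red, wild type in blue). A line joins the values of 1 probe set and carries no order of replicates. Of the myeloid probe sets 11 of 12 peak in deleted replicate 1, and of the S100, galectin and annexin probe sets 7 of 12.

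Most of the set read at least as high without Foxp3 as with it. Of the 12 probe sets above the filter, 10 had a higher mean in deleted cells, against 50.5% of all 13999 probe sets tested, and 2 a lower one, with differences from -0.27 to 1.80 on the log2 scale and a median of 0.57, against a median of 0.01 over all probe sets tested. In 7 of the 12 both deleted arrays were above both wild-type arrays, a pattern met in 19.0% of all probe sets tested. In 2 of the 12 both deleted arrays were lower, against 20.8% of all, and in 3 the groups overlapped. Only Lgals3 combined a difference of at least 1 with groups that did not overlap in the higher direction, as 6.67% of all probe sets did, and 0 of the 12 did so in the lower direction, against 4.44% of all. The higher count rested on the arrays used. It was 2 without deleted replicate 1, beside 1331 of all 13999 probe sets tested, and 5 without deleted replicate 2, beside 1367. It was 1 without wild-type replicate 1, beside 865, and 4 without wild-type replicate 2, beside 1915. With all arrays 934 of all probe sets tested met this pattern. In 5 of the 12 the difference was below 0.5 either way, as in 62.4% of all. Since the genes were chosen with this contrast in view, the shares are given as background only. As the RNA came from whole cell samples, more cells with a transcript and more transcript per cell cannot be told apart.

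Without deleted replicate 1, the mean was higher in the remaining deleted array for 8 of the 12 probe sets. Without deleted replicate 2 the number was 9, without wild-type replicate 1 it was 10, and without wild-type replicate 2 it was 9. Of these, 3 probe sets, those of S100a6, Anxa1 and 1 of Lgals1, changed sign when an array was left out. The 2 deleted arrays were a median of 0.43 apart on the log2 scale over the 12 probe sets, against 0.21 for the 2 wild-type arrays. Over all probe sets tested the medians were 0.42 for the deleted and 0.44 for the wild-type arrays, so the wild-type arrays were closer together here than over all probe sets. In 8 of the 12 deleted replicate 1 was above deleted replicate 2, as in 54.1% of all probe sets.

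Galectin-3, encoded by Lgals3, is a sugar-binding protein that crosslinks surface glycoproteins and binds receptors such as LAG-3. For Lgals3 the intensity was 6998 and 5287 in the 2 deleted arrays, compared with 1519 and 2000 in the 2 wild-type arrays. Both deleted arrays were far above both wild-type arrays, with a gap of 1.40 on the log2 scale between the nearest ones. The mean difference was 1.80 (SE 0.27, n = 2 per group), which is 3.49-fold, and it was 1.60 without deleted replicate 1. It lay between 1.60 and 2.01 whichever array was left out.

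Galectin-1, encoded by Lgals1, is a dimeric galectin made by Treg and effector T cells that can bind CD45, CD43 and CD7 on T cells. Its brighter probe set, 1455439_a_at, read 26433 and 34201 in the 2 deleted arrays, compared with 30279 and 27187 in the 2 wild-type arrays (intensity), so the groups overlapped. The difference of 0.07 on the log2 scale (SE 0.17, n = 2 per group) was 0.25 without deleted replicate 1, and it turned to -0.12 without deleted replicate 2 and to -0.01 without wild-type replicate 2. Its other probe set, 1419573_a_at, read 10468 and 13003 in the 2 deleted arrays, compared with 9594 and 8527 in the 2 wild-type arrays. Here the groups did not overlap, the difference was 0.37 (SE 0.19), and it was 0.52 with deleted replicate 1 left out and 0.21 with deleted replicate 2 left out. Both Lgals1 probe sets were lower in deleted replicate 1 than in deleted replicate 2.

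S100a4 encodes a protein of motile cells that binds nonmuscle myosin heavy chain IIA. Its probe set read 14709 and 8042 in the 2 deleted arrays, compared with 6992 and 7007 in the 2 wild-type arrays (intensity). The wild-type arrays were nearly equal, deleted replicate 2 lay slightly above them, and deleted replicate 1 was higher than the other 3. The mean difference of 0.64 (log2, SE 0.32, n = 2 per group) was 0.20 when deleted replicate 1 was left out and 1.07 when deleted replicate 2 was.

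S100a6, or calcyclin, binds the ubiquitin ligase adaptors CACYBP and SUGT1. Its probe set read 5127 and 3175 in the 2 deleted arrays, compared with 3639 and 3050 in the 2 wild-type arrays (intensity). The groups overlapped, because deleted replicate 2 lay between the wild-type arrays. The difference of 0.28 (log2, SE 0.31) became -0.07 without deleted replicate 1. S100a5, the gene between them, was near the floor on every array, at log2 intensities of 2.77 and 2.81 in the 2 deleted arrays, compared with 3.24 and 2.83 in the 2 wild-type arrays.

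S100a13, whose protein takes part in the release of proteins that lack a signal peptide, such as FGF1, had groups that were clearly apart. It read 797 and 598 in the 2 deleted arrays, compared with 373 and 358 in the 2 wild-type arrays (intensity). The difference was 0.92 (log2, SE 0.32, n = 2 per group), or 1.89-fold, and the nearest arrays of the groups were 0.68 apart. Without deleted replicate 1 it was 0.71, and leaving out any array kept it between 0.71 and 1.13. S100a1, its neighbour on chromosome 3, went the other way in mean, with log2 intensities of 4.70 and 3.60 in the 2 deleted arrays, compared with 4.84 and 5.40 in the 2 wild-type arrays.

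S100a10, or p11, is an S100 protein that no longer binds calcium and joins annexin A2 in a tetramer at the plasma membrane. Its 3 probe sets did not point one way. Probe set 1416762_at read 3238 and 2392 in the 2 deleted arrays, compared with 1340 and 2020 in the 2 wild-type arrays (intensity), with a difference of 0.76 (log2, SE 0.32) that was 0.54 without deleted replicate 1 and 0.46 without wild-type replicate 1. The brightest probe set, 1456642_x_at, read 15966 and 16716 in the 2 deleted arrays, compared with 17547 and 19525 in the 2 wild-type arrays. Both deleted arrays were slightly lower there, by a mean of -0.18 (SE 0.14), or -0.15 without deleted replicate 1. A suffix of _x_at marks probes that can also bind other transcripts. The third, 1439348_at, read 177 and 149 in the 2 deleted arrays, compared with 191 and 202 in the 2 wild-type arrays, a difference of -0.27 (SE 0.34), or -0.40 without deleted replicate 1. The mean over the 3 probe sets differed by 0.10, so that the direction for S100a10 depended on the probe set.

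**Figure D2:**
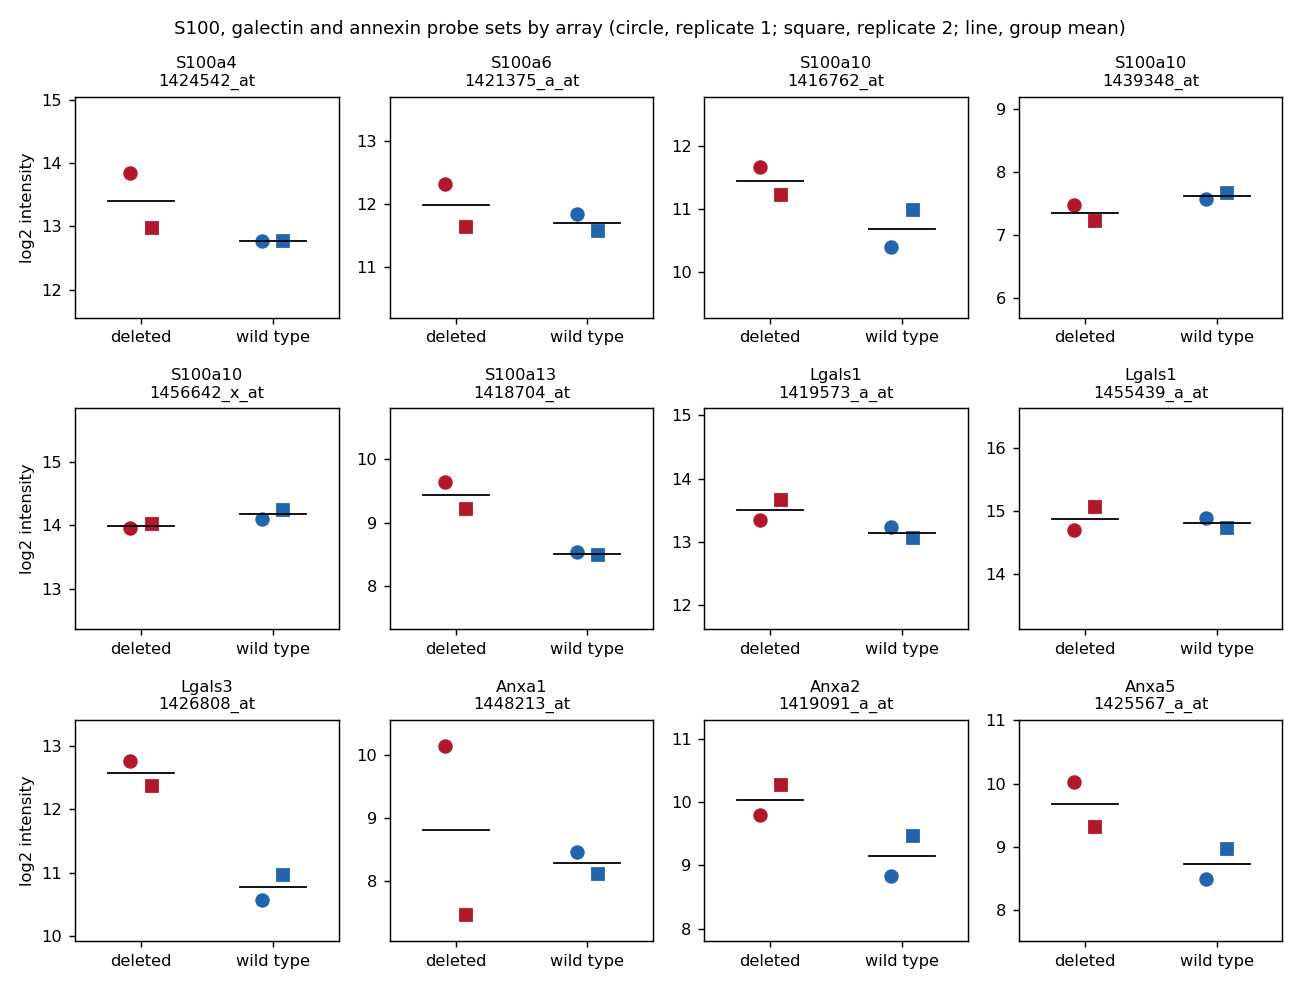
Log2 intensity (y axis, every panel 3.5 units tall) of the 12 S100, galectin and annexin probe sets above the filter in deleted cells (red) and wild-type cells (blue). Circles are replicate 1, squares replicate 2 and lines group means. The groups are widest apart for Lgals3, and the deleted arrays are widest apart for Anxa1.

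Annexin A2, encoded by Anxa2, is the partner of p11 and links membranes to actin. Probe set 1419091_a_at read 885 and 1238 in the 2 deleted arrays, compared with 458 and 707 in the 2 wild-type arrays (intensity). The groups did not overlap, and here deleted replicate 2 was the highest array. The difference was 0.88 (log2, SE 0.37, n = 2 per group), or 1.84-fold, with 1.12 without deleted replicate 1 and 0.57 without wild-type replicate 1. Its other 2 probe sets were near the floor on every array, with log2 intensities between 2.66 and 3.59, and say nothing on the direction.

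Annexin A5, encoded by Anxa5, is the phosphatidylserine binder known as a stain for dying cells. It read 1046 and 639 in the 2 deleted arrays, compared with 360 and 500 in the 2 wild-type arrays (intensity). Both deleted arrays were above both wild-type arrays, though the 2 deleted arrays lay 0.71 apart on the log2 scale. The difference of 0.95 (log2, SE 0.40), or 1.93-fold, was 0.59 when deleted replicate 1 was left out and 1.30 when deleted replicate 2 was.

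Annexin A1, encoded by Anxa1, is induced by glucocorticoids and signals through formyl peptide receptors. Probe set 1448213_at read 1129 and 177 in the 2 deleted arrays, compared with 355 and 278 in the 2 wild-type arrays (intensity). The highest and the lowest of the 4 values were both in deleted cells, 2.67 apart on the log2 scale, against 0.35 between the wild-type arrays. The mean difference of 0.51 (SE 0.90) was -0.82 when deleted replicate 1 was left out and 1.85 when deleted replicate 2 was, so no direction can be given for Anxa1. Its other probe set was near the floor, with log2 intensities between 2.69 and 2.73.

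**Figure D3:**
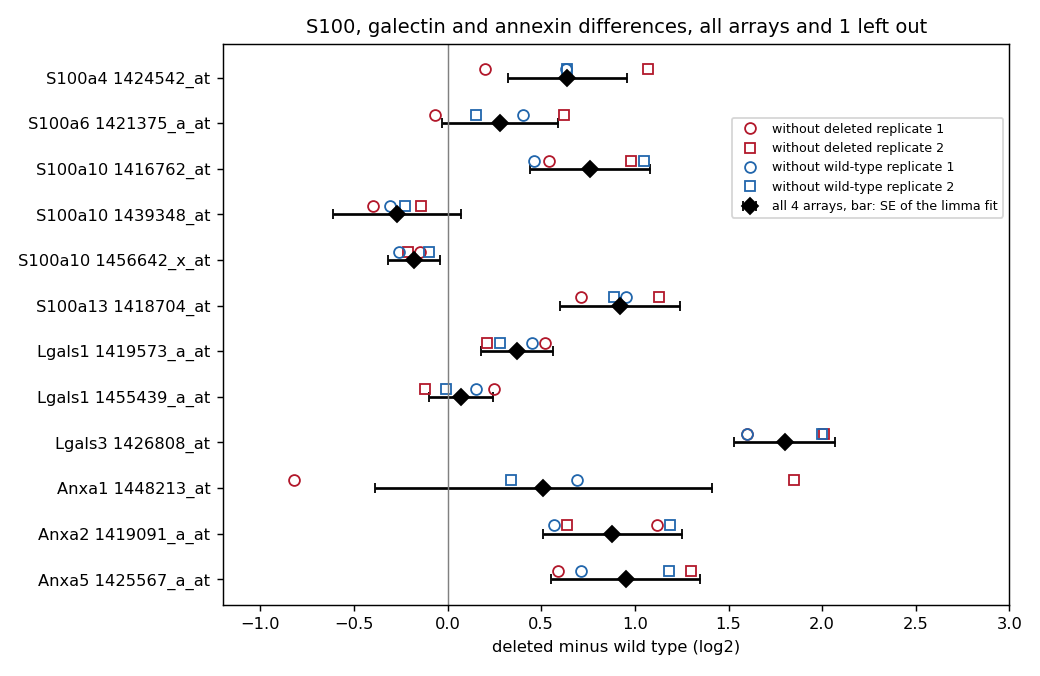
Difference deleted minus wild type on the log2 scale (x axis) for the 12 probe sets (y axis). Diamonds use all 4 arrays with the standard error of the limma fit as bars, red symbols leave out a deleted array and blue ones a wild-type array. Lgals3 stays between 1.60 and 2.01, and Anxa1 spans -0.82 to 1.85.

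The other genes of the 3 families give the range against which these can be read, and here the contrast was tested, with limma over all 13999 probe sets and Benjamini-Hochberg adjustment. No probe set of any gene passed an adjusted p of 0.05 (0.0% in either direction), against 1338 with an unadjusted p below 0.05, which is 9.56%. Of 12 other S100 genes, 9 had probe sets of their own and 3 were above the filter. These were S100a8 and S100a9, the calgranulins of neutrophils and monocytes, and S100a1. S100a8 had log2 intensities of 12.10 and 10.60 in the 2 deleted arrays, compared with 9.78 and 10.25 in the 2 wild-type arrays, a difference of 1.34 (SE 0.55, adjusted p = 0.55 in limma). With deleted replicate 1 left out it was 0.58, and with deleted replicate 2 left out 2.09. S100a9 had 11.80 and 9.65 in the 2 deleted arrays, compared with 9.68 and 9.50 in the 2 wild-type arrays, and its difference of 1.14 (SE 0.72, adjusted p = 0.70 in limma) was 0.07 without deleted replicate 1. Both were highest in the array with the high myeloid markers. S100a1 differed by -0.97 (SE 0.49, adjusted p = 0.633 in limma), by -1.52 without deleted replicate 1 and by -0.42 without deleted replicate 2.

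Of 9 other galectin family genes, 4 were above the filter. Lgals9, the galectin that TIM-3 binds, had a wild-type mean near the floor, with log2 intensities of 4.24 and 5.12 in the 2 deleted arrays, compared with 3.88 and 3.06 in the 2 wild-type arrays (difference 1.21, SE 0.46, adjusted p = 0.518 in limma, and 0.77 without deleted replicate 2). Lgals4 differed by -0.42 (SE 0.35), Lgals8 by -0.14 (SE 0.45) and the 2 probe sets of Lgalsl by 0.19 and -0.25. Beside Lgals3 and Lgals1, these galectin genes showed no common direction. For these 3 genes the adjusted p lay between 0.756 and 0.95 in limma.

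Of 9 other annexin genes, 3 were above the filter. Anxa6, the double-length annexin, had its brightest probe set at log2 intensities of 10.60 and 11.11 in the 2 deleted arrays, compared with 9.54 and 9.39 in the 2 wild-type arrays (difference 1.39, SE 0.31, adjusted p = 0.294 in limma). Its other 3 probe sets above the filter differed by 0.64, -0.19 and -0.45. Anxa4, an annexin mostly of epithelia, was at 7.04 and 6.77 in the 2 deleted arrays, compared with 8.08 and 7.73 in the 2 wild-type arrays, a difference of -1.0 (SE 0.36, adjusted p = 0.483 in limma). The 3 probe sets of Anxa7 differed by 0.10, 0.35 and 0.67. Anxa4 was thus the annexin gene above the filter whose deleted arrays were both lower, opposite in sign to Anxa2 and Anxa5.

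Partners and receptors of these proteins were taken from a list of 29 genes, of which 18 had probe sets above the filter, 31 in all. Of the 31, 21 had a higher mean in deleted cells and 10 a lower one, with a median difference of 0.26, which was 0.15 without deleted replicate 1, 0.09 without deleted replicate 2 and 0.44 without wild-type replicate 1. Of the 31, 0 passed in limma and 4 had an unadjusted p below 0.05, beside 9.56% of all probe sets. Lgals3bp, a secreted glycoprotein bound by galectin-3, had log2 intensities of 6.43 and 6.96 in the 2 deleted arrays, compared with 3.91 and 3.52 in the 2 wild-type arrays (difference 2.98, SE 0.37, adjusted p = 0.124 in limma). Both wild-type arrays were near the floor, so the size of this difference depends on the floor. It was 3.24 without deleted replicate 1. Cd7, a T cell glycoprotein bound by galectin-1, had 9.22 and 9.34 in the 2 deleted arrays, compared with 6.83 and 6.62 in the 2 wild-type arrays (difference 2.55, SE 0.33, adjusted p = 0.134 in limma). Havcr2, which encodes the galectin-9 receptor TIM-3, was lower in deleted cells, at 3.20 and 2.81, compared with 6.95 and 6.83 in wild-type cells (difference -3.88, SE 0.33, adjusted p = 0.0956 in limma), with the deleted arrays near the floor. Sugt1, the calcyclin partner, differed by 1.35 (SE 0.98, adjusted p = 0.728 in limma) on its brighter probe set and by 0.09 there without deleted replicate 1, while its other probe set differed by 0.01. Capn1, a calcium-dependent protease, differed by 0.88 (SE 0.69, adjusted p = 0.751 in limma) and by 0.01 without deleted replicate 2.

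Genes that accompany S100 and annexin genes in effector and memory T cells were also read as a list of 22, all above the filter with 33 probe sets. Of the 33, 25 had a higher mean in deleted cells and 8 a lower one, 23 were higher without overlap and 6 lower without overlap, against 19.0% and 20.8% of all probe sets. The median difference was 0.59, beside 0.57 for the 12 probe sets described above. None passed in limma, and 11 of 33 had an unadjusted p below 0.05, beside 9.56% of all probe sets. Without deleted replicate 1 the median was 0.49 and 26 of 33 had a higher mean. Emp1, a membrane protein gene, had log2 intensities of 8.46 and 7.69 in the 2 deleted arrays, compared with 5.51 and 6.17 in the 2 wild-type arrays (difference 2.24, SE 0.46, adjusted p = 0.269 in limma). Crip2, a LIM domain gene, differed by 1.38 (SE 0.34, adjusted p = 0.34 in limma), the chemokine receptor gene Cxcr3 by 1.11 (SE 0.29, adjusted p = 0.37 in limma) and Cd48 by 1.09 (SE 0.53, adjusted p = 0.624 in limma). Cd48 was at 0.36 without deleted replicate 1. Lmna, the lamin A/C gene, was the only lower one of the 5 genes named here. By the brightest probe set, 5 of the 22 genes of the list had a lower mean. Lmna had 6.49 and 4.96 in the 2 deleted arrays, compared with 8.20 and 6.90 in the 2 wild-type arrays (difference -1.82, SE 0.72, adjusted p = 0.526 in limma, and -1.05 without deleted replicate 2).

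Genes of naive T cells, where S100 and annexin genes are usually low, did not run opposite to them. All 17 tested probe sets of 8 such genes had a higher mean in deleted cells, with a median difference of 1.32, and 0 passed in limma, with 9 at an unadjusted p below 0.05. Igfbp4 differed by 2.40 (SE 0.29, adjusted p = 0.12 in limma), Nsg2 by 2.29, Actn1 by 1.96, Satb1 by 1.03 and the lymph node homing receptor gene Ccr7 by 0.89. Satb1 was at 0.63 without deleted replicate 1 and 0.41 without wild-type replicate 1.

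**Figure D4:**
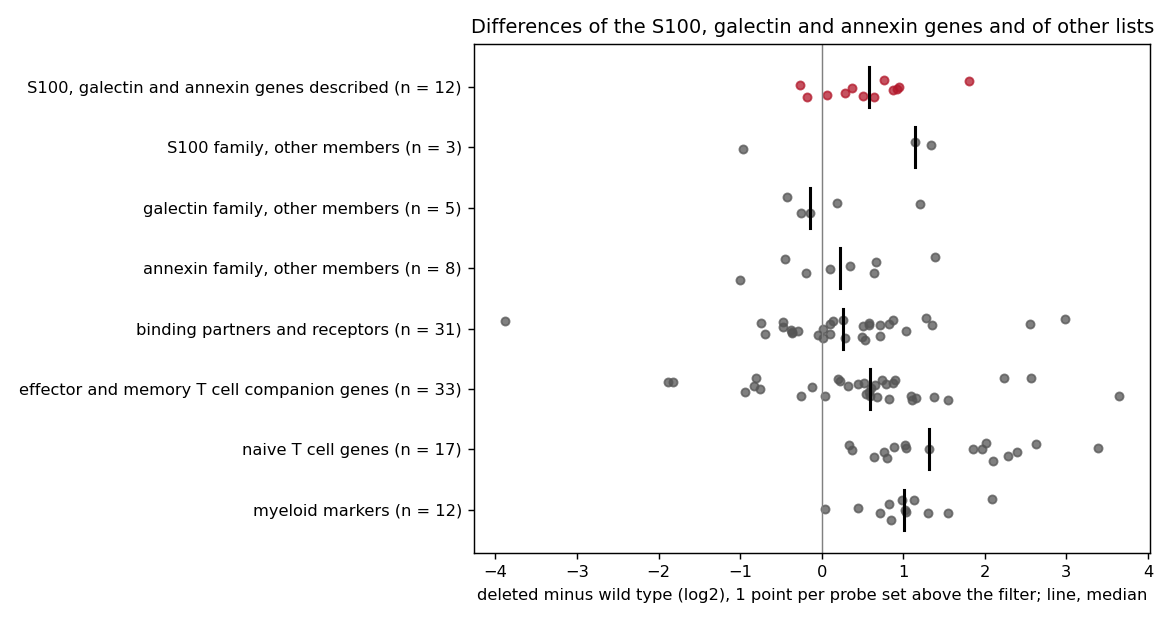
Difference deleted minus wild type on the log2 scale (x axis), 1 point per probe set above the filter, for the S100, galectin and annexin genes described (red) and for 7 other lists (grey). Black lines are medians, 0.57 for the 12 red points and 0.59 for the 33 effector and memory companions.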

How the data were processed

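The authors deposited GCRMA intensities on a linear scale, and the submitters' processing notes name GCRMA 1.1.3. GCRMA subtracts a background by probe sequence. How this step changes the differences of dim probe sets was not tested. Log2 was taken with no pseudocount. Of 45101 probe sets, 34945 had exactly 1 symbol and were no control, and 13999 of these had a mean log2 intensity of at least 4 over the 4 arrays and were tested. All arrays were fitted in limma 3.58.1 (R 4.3.3) by lmFit and eBayes with an intensity trend, per probe set, with Benjamini-Hochberg adjustment over all probe sets tested, a threshold of 0.05 and 2 residual degrees of freedom. The fit was tested on simulated data. Tables and plots were made with Python 3.11.15, pandas 2.3.3 and matplotlib 3.10.9. With 2 arrays per group, their number limits how precise any value is.

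The genes and lists were chosen with earlier results of these data known. All probe sets of the genes described are given. Other family genes above the filter are all named, and of each other list the 5 genes with the largest difference on their brightest probe set. Ccl6, Mpeg1, Fcer1g and Lyz1 of the myeloid list met this rule and had differences of 2.09, 1.13, 1.02 and 0.99. Of further marker lists, CD8 T and NK cell genes had 0 probe sets above the filter, B cell genes 1 (Cd79b, -2.04), erythroid and platelet genes 1 (Alas2, 0.08) and T cell genes 7 of 8, the 8 summing to 16545 and 15484 in the 2 deleted arrays, compared with 11584 and 12050 in the 2 wild-type arrays. The alternatives were other filters, scalings, a floor at 4, no trend, 1 probe set per gene, each array left out and the replicate number as a block. Same-numbered samples deviated in opposite directions (correlation -0.274), so the numbers were not taken as pairs. The arrays did not simply group by Foxp3 status. Over all probe sets tested, deleted replicate 1 and wild-type replicate 2 correlated at 0.9455. The 2 deleted arrays correlated at 0.9474 and the 2 wild-type arrays at 0.9343. The other pairs across the groups lay between 0.8957 and 0.9232. The cause was not tested.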

Additional observations from a re-analysis of the deposited data

How the results depend on the processing

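The 10 of 12 S100, galectin and annexin probe sets with a higher mean became between 8 and 10 when an array was left out. Of 100 recomputed differences of these probe sets, 97 moved by less than the spread between replicates. For a left-out array this holds by construction, since its shift cannot exceed that spread. The replicate block cannot move a difference in this balanced design. Raising low values to the floor cannot either, because every array value of these probe sets lay above it. For these settings the result was therefore fixed in advance and is no sign of stability. Centring on the median shifted every one of these differences by the same -0.02, so it says nothing on a single probe set. Only quantile normalization and the means over probe sets could move the differences separately. The 3 differences that moved further included the brightest S100a10 probe set after quantile normalization (-0.28). They also included the means over all probe sets of S100a10 (0.10) and Anxa2 (0.29), for Anxa2 by taking in probe sets near the floor. No probe set was called in limma with all arrays, with an array left out, without a filter, without the trend, with the floor or with 1 probe set per gene. With arrays centred on their median 28 probe sets were called, with quantile normalization 15 and with a filter at 6 there were 18, and the cause was not tested. The partner list had 1 call after each of these scalings, and the naive list 1 call after centring and 1 with the filter at 6. The 3 other family lists and the effector and memory list had 0 calls under each alternative run. Foxp3 differed by -2.55 (adjusted p = 0.106 in limma) and lay between -2.63 and -2.47 with an array left out. The replicate block cannot change a difference in this balanced design, so Foxp3 at -2.55 and 10 of 12 probe sets with a higher mean were fixed in advance. With this block the adjusted p of Foxp3 was 0.374 in limma, and 0 probe sets were called. With crossed replicate numbers as the block, added after seeing the data, 0 were called.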
